A study of Mus musculus with 12 samples.

Results

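The genes described here are 10 genes of the Th2 program, the set of factors, cytokines and receptors that marks T helper type 2 cells. They were taken by symbol from the 39017 Ensembl gene rows of the table: Gata3, Maf and Nfil3 (transcription factors), Il4, Il13, Il5 and Il24 (cytokines), and Ccr4, Ccr8 and Il1rl1 (receptors). Each of the 10 had 1 row. The RNA came from CD4+ T cells of SJL mice of the core genotypes model, in which Sry, the testis-determining gene, is deleted from the Y chromosome (written Y-) and is carried by some mice as a transgene. There were 4 groups of 3 libraries: XX and XY- (labelled female, without Sry), and XXSry and XY-Sry (labelled male, with the Sry transgene). Gonadectomy was done in all mice at 4 to 6 weeks, and the lymph nodes came from mice aged 8 to 12 weeks. In all groups the CD4+ cells were obtained by magnetic negative selection and kept for 36 hours with anti-CD3/CD28 beads, which activate T cells, so no group was unstimulated and none was given Th2-polarizing cytokines according to the labels. Sry status and gonad type before gonadectomy cannot be told apart in this design.

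Th2 cells arise when a naive CD4+ T cell is activated in the presence of IL-4, which signals through its receptor and STAT6 to raise GATA3. GATA3 opens a cluster on chromosome 11 in which Il4 and Il13 lie beside Rad50 and Il5, and Th2 cells then secrete the 3 cytokines, which act on B cells, mucosa and eosinophils. Several of the genes are not particular to Th2 cells: Gata3 is expressed in all CD4+ T cells, Maf also in follicular helper and Th17 cells, and Ccr4, Ccr8 and Il1rl1 also in regulatory T cells.

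Total counts ran from 11664186 to 16710188 per library. XX replicate 3 had the lowest total, and mitochondrial genes made up 5.01% of it, where the other 11 libraries had 2.27% to 2.87%. XXSry replicate 3 was the library whose removal raised the number of genes that differed with Sry, from 793 to 1282. Genes that define CD4+ T cells were present throughout, with Cd4 between 810.2 and 915.8 CPM (read counts scaled to library size with a TMM factor) in every library.

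In CPM the 10 genes ran from a well expressed set to the nearly silent cytokine genes, with Il1rl1 between them. The lineage factor Gata3 (zinc finger factor, chromosome 2, 9857078 to 9890034, mm10, minus strand) averaged 76.7 CPM over the 12 libraries. The chemokine receptor Ccr4 (chromosome 9, 114490316 to 114504916, minus strand) averaged 95.1 CPM. Nfil3 (chromosome 13, 52967209 to 52981073, minus strand), Ccr8 (chromosome 9, 120092114 to 120094906, plus strand) and Maf (chromosome 8, 115682942 to 115707794, minus strand) averaged 19.2, 15.2 and 12.9 CPM. Il1rl1, the IL-33 receptor gene also called ST2 (chromosome 1, 40429570 to 40465415, plus strand), averaged 1.97 CPM. The 4 cytokine genes averaged 0.511 CPM for Il4, 0.471 for Il13, 0.261 for Il5 and 0.254 for Il24.

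Per kilobase of exon, the scale on which levels of different genes can be compared, the order was Ccr4 (30.8 CPM per kb), Gata3 (19.3), Ccr8 (13.0), Nfil3 (9.50), Maf (1.56), Il4 (0.416), Il13 (0.391), Il1rl1 (0.285), Il24 (0.183) and Il5 (0.170). Set against 14359 tested genes with a known exon length, Ccr4 stood above 85.9% of them and Gata3 above 76.3%. Ccr8, Nfil3 and Maf stood above 66.1%, 57.6% and 22.1%. Il4 and Il13 stood above 9.0% and 8.55%, and Il1rl1 above 6.34%. The Th2 cytokine and Il1rl1 transcripts were therefore at the low end of the scale set by these tested genes, and Maf was in the lower part. Genes with too few reads for the test were not part of that scale. Gata3 and both chemokine receptors were in the upper part.

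**Figure D1:**
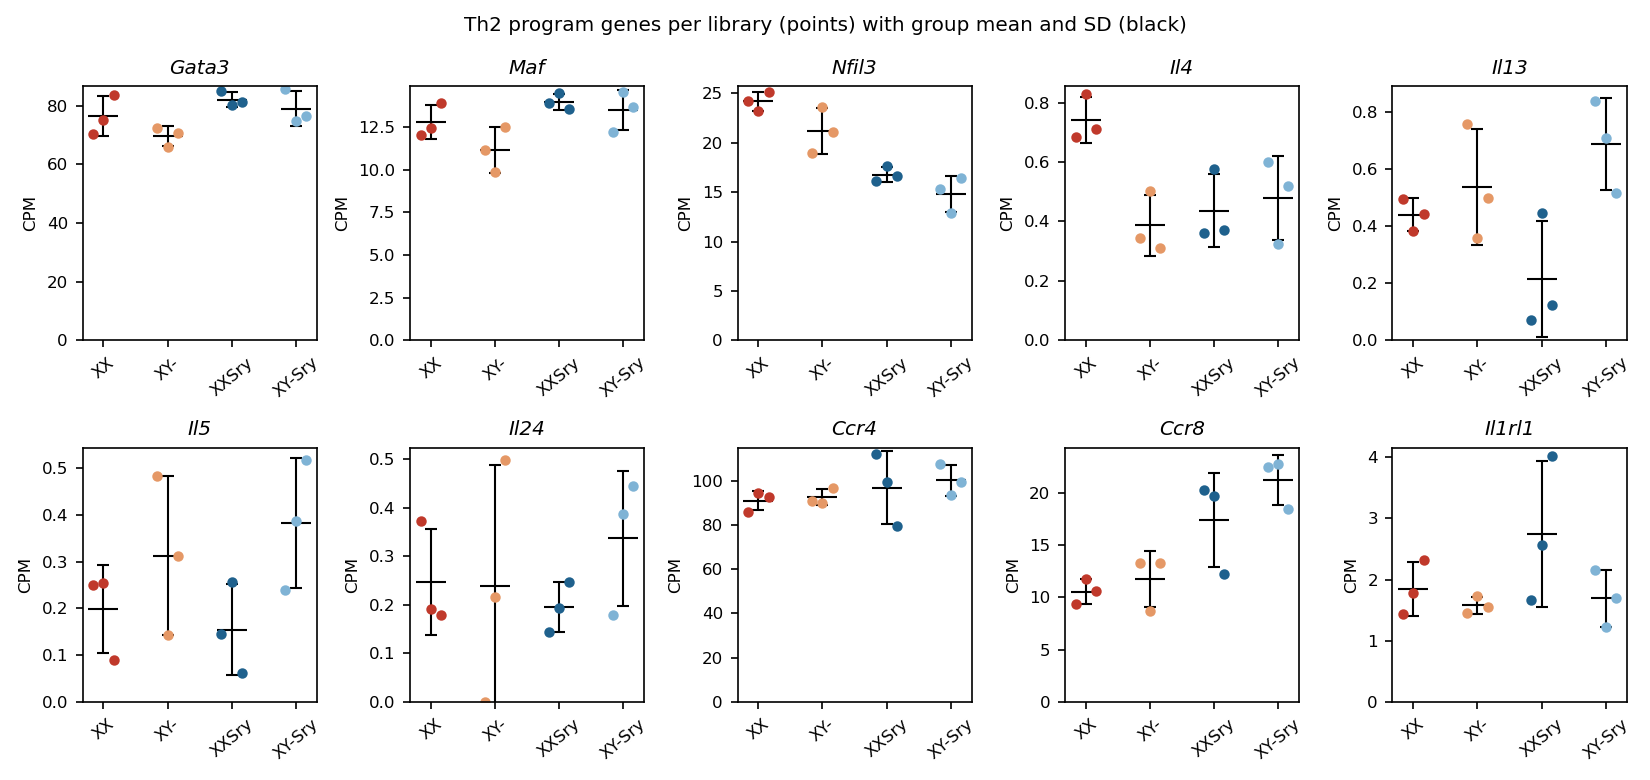
Level of each gene in CPM on a linear axis from 0, with 1 point per library and the group mean with SD (n = 3) in black. Nfil3 lies lower in both Sry-carrying groups (12.9 to 17.6 CPM) than in the groups without Sry (18.9 to 25.1 CPM), Ccr8 lies higher in most Sry-carrying libraries, and the 4 cytokine genes stay below 1 CPM in every library.

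Nfil3 was the member with the clearest difference. It encodes a basic leucine zipper repressor, also known as E4BP4, that is required for innate lymphoid cell development and acts on cytokine genes in mouse T cells. The XX libraries read 24.3, 23.2 and 25.1 CPM and the XY- libraries 18.9, 23.6 and 21.1 CPM. With Sry, the XXSry libraries read 16.1, 17.6 and 16.6 CPM and the XY-Sry libraries 15.3, 12.9 and 16.4 CPM. All 6 libraries with Sry lay below all 6 without it. Over all tested genes, the libraries with and without Sry did not overlap for 2.83%.

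As the mean of both sex chromosome types, Nfil3 fell with Sry by 0.52 ± 0.07 on the log2 scale (± SE, edgeR quasi-likelihood test, adjusted p = 0.0013), a ratio of 0.698. The fall was 0.52 ± 0.10 within XX and 0.52 ± 0.10 within XY- (edgeR adjusted p = 0.037 and 0.036). Nfil3 was the 1 member of 8 called in each of these comparisons, which called 0.453% of all tested genes within XX (0.254% lower) and 0.679% within XY- (0.569% lower). The comparisons within a type share their libraries with the mean. The test of the difference between these 2 effects gave -0.01 with a 95% interval of -0.32 to 0.30. The fall in the mean remained called in all 12 fits that left out 1 library, at -0.56 to -0.47 (edgeR adjusted p 0.00109 to 0.00556). Within a type the change stayed at -0.56 to -0.49 (XX) and -0.59 to -0.42 (XY-) in these fits, but the call was not always kept. Within XX it was kept in 5 of 12 fits (adjusted p 0.0254 to 0.152), ending without XX replicate 1 or 3, XY- replicate 3, any XXSry library or XY-Sry replicate 1. It ended as well when only the 2 groups entered the fit (edgeR adjusted p = 0.095). Within XY- it was kept in 6 of 12 (adjusted p 0.0259 to 0.242), ending without XY- replicate 2 or 3, XXSry replicate 2 or any XY-Sry library.

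Ccr8, a receptor for the chemokine CCL1 found on Th2 and regulatory T cells, went the other way. The XX libraries read 9.33, 11.7 and 10.6 CPM and the XY- libraries 13.3, 8.70 and 13.3 CPM. The XXSry libraries read 20.3, 19.7 and 12.2 CPM and the XY-Sry libraries 22.5, 22.7 and 18.5 CPM. Within each sex chromosome type the groups did not overlap, which held for 3 of 8 members within XX and 3 within XY-, and for 16.1% and 22.7% of all tested genes. However, XXSry replicate 3 lay below 2 of the 3 XY- libraries.

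In the mean of both types Ccr8 rose with Sry by 0.78 ± 0.13 on the log2 scale (edgeR adjusted p = 0.0044), a ratio of 1.72. It remained called in all 12 fits that left out 1 library (edgeR adjusted p 0.000469 to 0.019), with changes of 0.70 to 0.89. Within XX the change was 0.72 ± 0.19 and within XY- 0.85 ± 0.19, and neither passed the threshold in edgeR (adjusted p = 0.11 and 0.053), while DESeq2 called both (adjusted p = 0.0174 and 0.00169). Without XXSry replicate 3 the change within XX was 0.93 (edgeR adjusted p = 0.0194). Within XY- edgeR called it when XX replicate 2, XY- replicate 1 or replicate 1 or 3 of XXSry was left out (adjusted p 0.0134 to 0.0489), and when only the 2 groups entered the fit (adjusted p = 0.0203). The difference between the effects of Sry in XX and XY- was -0.13 (95% interval -0.70 to 0.45).

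These were the only calls among the 10 genes in the Sry comparison. The filter on low counts left 8 members in the test, all but Il5 and Il24, and 2 of the 8 passed, 1 higher and 1 lower. Of all 14585 genes tested, 5.44% passed in this comparison, 2.13% higher and 3.31% lower with Sry. The median log2 change of the 8 members was 0.12, against 0.00 (-0.000893) over all tested genes, and 5 of the 8 were positive. At an unadjusted edgeR p under 0.05 were 4 of 8 (Nfil3, Ccr8, Gata3 and Maf), against 21% of all tested genes.

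**Figure D2:**
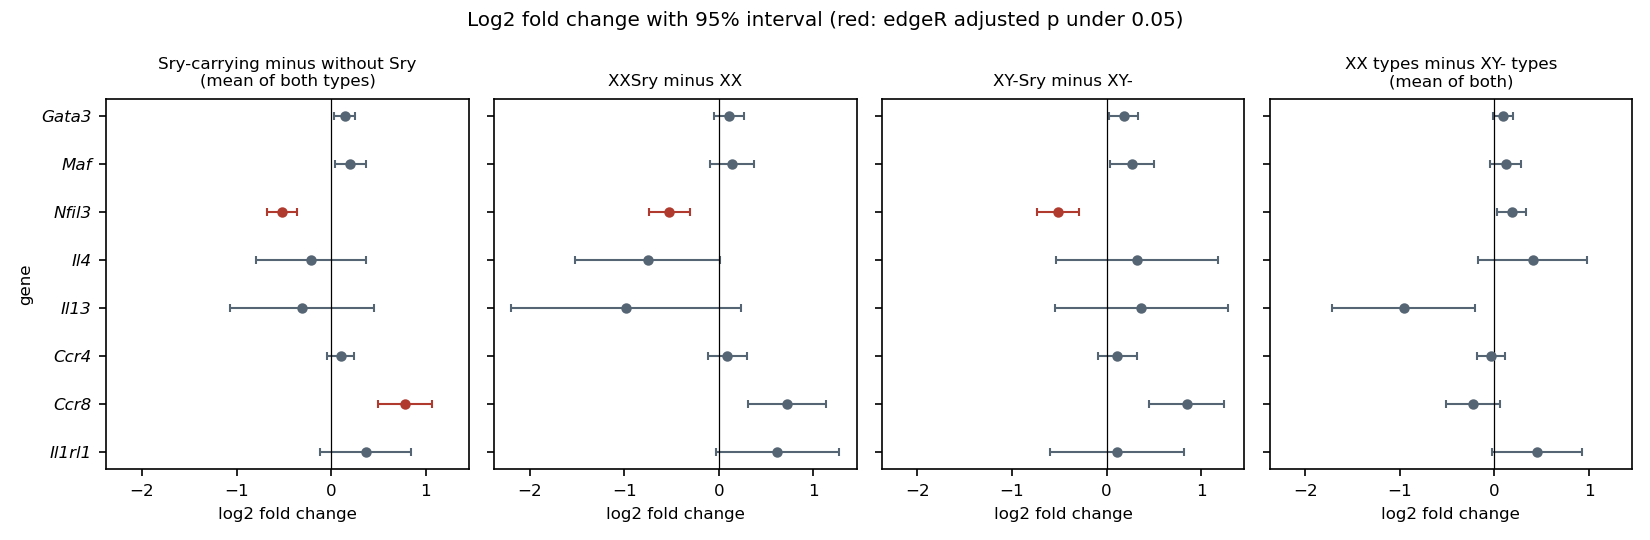
Log2 fold change of the 8 tested genes with its 95% interval in 4 comparisons, red where the edgeR adjusted p was under 0.05. Nfil3 is red in the 3 Sry comparisons and Ccr8 in their mean (0.78), and no gene is red in the comparison of XX with XY- types.

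The promoters of Nfil3 and Ccr8 are shown because these 2 genes changed in opposite directions, beside those of Il4 and Il13, whose transcripts were almost absent. The sequences are the 250 bases before the RefSeq start site (GRCm38.p6, the assembly of mm10), read 5′ to 3′ on the gene's strand, and 8 of the 10 members matched an entry in the promoter table. Capitals mark matches, on either strand, to short words known for factors of this program: AGATAA or the variant AGATAG, and also TGATAA or the variant TGATAG, for GATA factors, TTCNNNGAA for STAT factors, TGANTCA for AP-1, GGAAA for NFAT, TGCTGAC for MAF, and TTACGTAA or the variant TTATGTAA for NFIL3. In the order printed the windows are chr13:52981040-52981289 (minus strand), chr9:120091883-120092132 (plus), chr11:53618666-53618915 (minus, the second of 2 RefSeq starts of Il4, which is the outer end of the gene) and chr11:53634703-53634952 (minus).
Nfil3: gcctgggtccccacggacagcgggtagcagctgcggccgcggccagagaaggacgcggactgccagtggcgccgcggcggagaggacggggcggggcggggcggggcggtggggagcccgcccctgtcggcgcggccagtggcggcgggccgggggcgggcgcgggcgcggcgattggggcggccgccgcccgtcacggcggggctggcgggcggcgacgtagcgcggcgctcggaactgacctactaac
Ccr8: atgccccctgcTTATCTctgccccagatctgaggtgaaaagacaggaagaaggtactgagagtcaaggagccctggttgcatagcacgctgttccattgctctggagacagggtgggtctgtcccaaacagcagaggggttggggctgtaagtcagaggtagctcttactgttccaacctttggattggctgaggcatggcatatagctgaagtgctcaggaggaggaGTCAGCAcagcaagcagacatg
Il4: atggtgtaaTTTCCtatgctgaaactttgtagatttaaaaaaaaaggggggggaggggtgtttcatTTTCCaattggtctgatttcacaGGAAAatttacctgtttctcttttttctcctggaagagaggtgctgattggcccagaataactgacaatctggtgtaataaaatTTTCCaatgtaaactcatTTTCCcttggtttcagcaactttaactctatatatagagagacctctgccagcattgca
Il13: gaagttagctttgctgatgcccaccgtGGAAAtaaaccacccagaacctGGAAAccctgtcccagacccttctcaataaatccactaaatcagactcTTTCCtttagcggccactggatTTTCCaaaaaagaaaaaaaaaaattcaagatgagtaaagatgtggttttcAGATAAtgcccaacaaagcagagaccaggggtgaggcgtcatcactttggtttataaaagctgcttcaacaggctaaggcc

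These windows differed in composition. That of Nfil3 had 81.6% G and C and no match to any of the words, against 53.6% for Ccr8, 43.2% for Il13, 37.6% for the second start of Il4 and a median of 52.4% over all promoters. Ccr8 held 1 GATA word, 239 to 234 bases before the start, and 1 MAF word, 22 to 16 bases before it. Among 32851 promoters of the same length a GATA word was found in 26.5% and the MAF word in 3.81%. At the second start Il4 held 5 NFAT words, while the window of its first start, not printed, had 52.8% G and C, no NFAT word and 1 GATA word at 80 to 75 bases. Il13 held 4 NFAT words and a GATA word at 81 to 76 bases. At least 1 NFAT word was found in 55.6% of promoters. The share with several NFAT words, or with NFAT and GATA words together, was not counted. The STAT, AP-1 and NFIL3 words, found in 7.02%, 6.75% and 0.931% of promoters, matched none of these 4 windows. A match is a description of the letters and not a binding site.

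Gata3 and Maf, the other transcription factors, differed little between groups. Gata3, required both for CD4+ T cells to develop and for Th2 fate, was at 70.2, 75.1 and 83.6 CPM in the XX libraries, 72.5, 65.8 and 70.6 in the XY- libraries, 84.9, 80.1 and 81.0 in the XXSry libraries, and 85.7, 74.7 and 76.3 in the XY-Sry libraries. The XY- libraries were the lowest as a group and did not overlap with XY-Sry, which held for 22.7% of all tested genes. XX replicate 3 reached the level of the Sry-carrying libraries. The change with Sry was 0.14 ± 0.05 in the mean (edgeR adjusted p = 0.12), with a 95% interval of 0.03 to 0.25. Over the 12 fits that left out 1 library this change ran from 0.11 to 0.18 (edgeR adjusted p 0.0453 to 0.293) and passed the threshold in 1. That fit left out XX replicate 3, which had the highest Gata3 level of the libraries without Sry.

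Maf, a basic leucine zipper factor that activates Il4, was at 12.0, 12.4 and 13.9 CPM in the XX libraries, 11.1, 9.84 and 12.5 in the XY- libraries, 13.9, 14.5 and 13.6 in the XXSry libraries, and 12.2, 14.5 and 13.7 in the XY-Sry libraries. The groups overlapped, and the change with Sry was 0.20 ± 0.08 (edgeR adjusted p = 0.14). Antisense transcripts overlap both genes in the annotation, Gm13256 in 3.90% of the exon bases of Gata3 and Gm15655 in 5.34% of those of Maf. They held 633 and 255 counts against 13703 and 2295, and no source used here states whether counting took account of strand, so reads in the shared bases are uncertain.

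Ccr4, the receptor for the chemokines CCL17 and CCL22, had the highest level of the 10 genes and no called change. The gene was at 86.0, 94.3 and 92.6 CPM in the XX libraries, 90.9, 90.0 and 96.8 in the XY- libraries, 112.0, 99.3 and 79.5 in the XXSry libraries, and 107.5, 93.5 and 99.4 in the XY-Sry libraries. The highest and the lowest of its 12 values both came from XXSry, so the groups overlapped. The change with Sry was 0.10 ± 0.07 (edgeR adjusted p = 0.43), with a 95% interval of -0.04 to 0.25.

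Il1rl1 encodes the receptor through which IL-33 acts on Th2, regulatory T and innate lymphoid cells. It was at 1.43, 1.78 and 2.31 CPM in the XX libraries, 1.45, 1.73 and 1.56 in the XY- libraries, 1.66, 2.56 and 4.02 in the XXSry libraries, and 2.16, 1.23 and 1.70 in the XY-Sry libraries. The value of XXSry replicate 3, from 65 counts, was the highest of the 12, and the other 11 libraries had 19 to 40 counts. The change within XX was 0.62 ± 0.30 (edgeR adjusted p = 0.38) and 0.24 without that library.

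Il4, which drives Th2 differentiation and IgE switching, was counted 8 to 13 times per library in XX and 5 to 10 times in the other 9 libraries. In XX its level was 0.684, 0.829 and 0.712 CPM, above the 0.345, 0.503 and 0.311 CPM of XY- without overlap. The log2 difference of XX over XY- was 0.94 ± 0.37 and did not pass the threshold (edgeR adjusted p = 0.74), and groups of this comparison did not overlap for 9.74% of all tested genes. In XXSry and XY-Sry the summed counts were 20 and 22, and the difference between them was -0.13 ± 0.39.

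Il13, which acts on mucosal epithelium and shares a receptor chain with IL-4, had 19, 24, 10 and 32 summed counts in the XX, XY-, XXSry and XY-Sry groups. XXSry stood at 0.0721, 0.449 and 0.124 CPM, below the 0.839, 0.710 and 0.518 CPM of XY-Sry. The log2 difference was -1.64 ± 0.51 (edgeR adjusted p = 0.45), in a comparison whose groups did not overlap for 20.2% of all tested genes. Without 1 library the difference ranged from -2.70 to -1.27 and was called in 0 of 12 fits.

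Il5, the eosinophil growth factor, and Il24, a cytokine of the IL-10 family, had 47 and 46 counts over all 12 libraries and did not pass the filter. Il5 was counted 9, 14, 7 and 17 times in XX, XY-, XXSry and XY-Sry, and Il24 11, 11, 9 and 15 times, with XY- replicate 1 at 0. Of the 47 counts of Il5, 16 came from XX types and 31 from XY- types, a ratio of 0.525 (95% interval 0.268 to 0.990, counting error only). For Il13 the same ratio was 0.527 (0.324 to 0.839), for Il4 1.36 (0.878 to 2.11) and for Il24 0.782 (0.414 to 1.46). The ratios of these 4 genes with Sry over without were 0.821 to 1.04, each with an interval that held 1. Counts are pooled over libraries in these intervals, which leave out the spread between libraries. In the fit over libraries the difference of Il13 between XX and XY- types was not called (edgeR adjusted p = 0.28). In a fit without the filter the log2 difference of Il5 between XX and XY- types was -0.92 ± 0.53 (edgeR adjusted p = 0.59). The antisense transcript Gm12214 overlaps 27.1% of the exon bases of Il5 and had 16 counts, so the small number for Il5 is uncertain.

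The changes of Il4 and Il13 with Sry had wide intervals and opposite signs in the 2 sex chromosome types. Il4 stood at -0.75 ± 0.36 within XX, where the groups did not overlap, and at 0.32 ± 0.40 within XY- (edgeR adjusted p = 0.38 and 0.81). Groups within XX did not overlap for 16.1% of all tested genes. Il13 stood at -0.99 ± 0.57 within XX and 0.37 ± 0.43 within XY- (edgeR adjusted p = 0.47 and 0.78). As the mean of both types the 95% interval ran from -0.80 to 0.37 for Il4 and from -1.07 to 0.45 for Il13. The mean of Il13, -0.31, was -0.85 without XXSry replicate 2 and -0.13 without XXSry replicate 1.

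The sex chromosomes alone gave no call among the 8 tested members. In XX against XY- edgeR called 0 of 8, with 1 at an unadjusted p under 0.05 (Il4), against 6.37% of all tested genes. In XXSry against XY-Sry edgeR called 0 of 8, with 2 at an unadjusted p under 0.05 (Il13 and Il1rl1), against 10.4%. In the mean of both it called 0 of 8, with 2 at an unadjusted p under 0.05 (Il13 and Nfil3), against 14.2%, and DESeq2 called 0 in each of the 3. Few genes of any kind passed: 0.103%, 0.103% and 0.137% of the 14585 tested. The changes in the mean were 0.18 ± 0.07 for Nfil3, 0.09 ± 0.05 for Gata3, 0.12 ± 0.08 for Maf, -0.04 ± 0.07 for Ccr4, -0.23 ± 0.13 for Ccr8, 0.45 ± 0.22 for Il1rl1, 0.40 ± 0.27 for Il4 and -0.96 ± 0.35 for Il13 (edgeR adjusted p = 0.28 to 0.83 for these 8). For Ccr4 the 95% interval was -0.18 to 0.11. The interaction of sex chromosomes with Sry was called for 0 of 8 members by edgeR and by DESeq2, with 0 at an unadjusted edgeR p under 0.05 (2.64% of all tested genes), and for 0% of all genes at the adjusted threshold.

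Nfil3 and Ccr8 ran in opposite directions over the libraries. Because they were called in opposite directions with Sry in these same libraries, a negative correlation follows in part from those calls. The Pearson correlation of their log2 CPM was -0.886 over the 12 libraries, and -0.490 once each group's mean was subtracted, so part of the relation lay between groups. Ccr4 and Ccr8 stood at 0.686, and at 0.724 after subtraction. Gata3 and Maf stood at 0.666, and at 0.194 after subtraction. These are descriptions, in which the genes share the libraries and their depth.

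**Figure D3:**
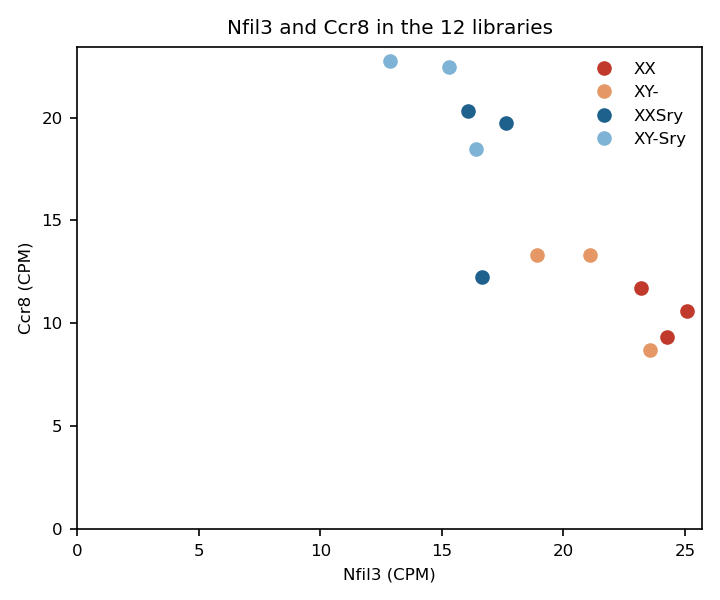
Level of Nfil3 against Ccr8 in CPM, 1 point per library, coloured by group, on linear axes from 0. The 6 Sry-carrying libraries lie at the left (Nfil3 12.9 to 17.6 CPM), and XXSry replicate 3 lies lower on the Ccr8 axis (12.2 CPM) than the other 5.

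The tested genes whose log2 CPM followed each member most closely over the 12 libraries were sought among all 14585. For Nfil3 they were the noncoding gene Gm13546 and Nsdhl, an enzyme of cholesterol synthesis on the X chromosome (r = 0.980 and 0.977, and 0.852 and 0.874 within groups). For Ccr8 they were Synpo and Agfg1 (r = 0.965 and 0.962, and 0.879 and 0.870 within groups). For Ccr4 they were Fbxo31 and Eid2 (0.904 and 0.888), for Gata3 Gm12057 and Aftph (0.901 and 0.900), and for Maf 1700018M17Rik and Cdc42bpa (0.878 and 0.876). The highest of 14585 values is high by selection, and no shared function is read from it.

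Genes that promote Th2 differentiation moved in both directions with Sry. Of 26 such genes, 24 were tested and 4 were called, 2 higher and 2 lower, with a median log2 change of 0.04. Over all tested genes 5.44% were called in this comparison, 2.13% higher and 3.31% lower. An unadjusted edgeR p under 0.05 was reached by 13 of the 24, against 21% of all tested genes. The lists, like the members, were chosen with earlier results of these data known. No enrichment is therefore read from such shares, for the members or for any list. Tcf7, an HMG-box factor that can activate Gata3, rose by 0.32 ± 0.05 and the AP-1 subunit Junb by 0.31 ± 0.05 (edgeR adjusted p = 0.0016 and 0.0027). Il4ra, the signalling chain of the IL-4 receptor, fell by 0.34 ± 0.06, from 333 ± 26 and 335 ± 37 CPM without Sry (XX and XY-, SD, n = 3) to 267 ± 12 and 261 ± 24 with it (XXSry and XY-Sry, edgeR adjusted p = 0.0052). Il2ra, the high-affinity chain of the IL-2 receptor, fell by 0.18 ± 0.04 (edgeR adjusted p = 0.020), a call kept in 7 of 12 fits without 1 library and lost without replicate 2 or 3 of XY-, 1 or 2 of XXSry, or 2 of XY-Sry. Stat6, the factor downstream of IL-4, was at 207.4 to 223.2 CPM in all libraries with a change of 0.00 (-0.00393, edgeR adjusted p = 0.97). Without XXSry replicate 3 the list had 7 called genes.

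Genes that oppose the program were also divided. Of 16 such genes 15 were tested and 3 called, 2 higher and 1 lower, with a median of -0.06. Over all tested genes 5.44% were called, 2.13% higher and 3.31% lower. An unadjusted edgeR p under 0.05 was reached by 10 of the 15, against 21% of all tested genes. Zfpm1, which encodes the GATA cofactor FOG-1, rose by 0.26 ± 0.06 and Sox4 by 0.41 ± 0.11 (edgeR adjusted p = 0.021 and 0.037). Stat4, which carries the IL-12 signal of Th1 cells, fell by 0.47 ± 0.09, from 38.0 ± 2.5 and 37.7 ± 2.5 CPM without Sry (XX and XY-, SD, n = 3) to 28.3 ± 6.2 and 26.3 ± 2.9 with it (XXSry and XY-Sry, edgeR adjusted p = 0.0073). Tbx21, the Th1 lineage factor, had a change of 0.56 ± 0.18 and did not pass (edgeR adjusted p = 0.085). The call of Zfpm1 was kept in 8 of 12 fits without 1 library, ending without replicate 2 of XY-, replicates 1 and 2 of XXSry, or replicate 1 of XY-Sry, each left out alone. That of Sox4 was kept in 5, ending without replicate 1 or 3 of XY-, 1 or 2 of XXSry, or any of the XY-Sry libraries. The list count ran from 1 (without replicate 1 or 2 of XXSry or replicate 1 of XY-Sry) to 5 (without XX replicate 1 or 2, or XXSry replicate 3).

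**Figure D4:**
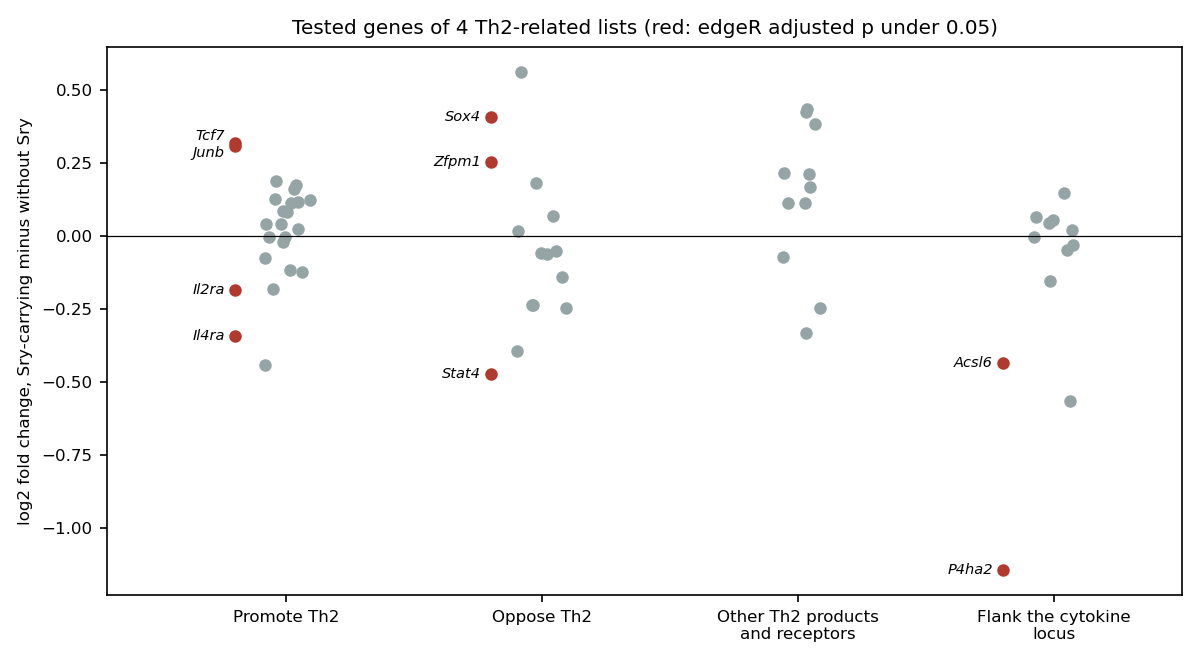
Log2 fold change with Sry, as the mean of both sex chromosome types, of the tested genes in 4 lists related to Th2 cells, 1 point per gene, red and named where the edgeR adjusted p was under 0.05. The called genes of the first 2 lists lie on both sides of 0, and the list of other Th2 products has none.

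Other secreted products and receptors of Th2 cells gave 0 calls among 11 tested genes of 20 by edgeR and by DESeq2, with a median of 0.17 and 8 of 11 positive. The best expressed were Lif, at 470.8 CPM over all libraries, Tnfsf11 at 30.4, the TSLP receptor chain Crlf2 at 26.5 and Il1rap, the partner chain of Il1rl1, at 17.1. Their changes were -0.25, 0.22, 0.17 and 0.11 (edgeR adjusted p = 0.17 to 0.41). At an unadjusted edgeR p under 0.05 were 4 of the 11, against 21% of all tested genes. Of the 20 genes 11 averaged below 1 CPM, among them Il9, Il10, Il3 and Areg, and Il31 had 0 counts, which allows a level of up to 0.0168 CPM over the 12 libraries. Without XXSry replicate 3 the edgeR count was 2, and without XX replicate 2 it was 1.

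Around the cytokine cluster on chromosome 11, 12 of 16 neighbouring genes averaged at least 5 CPM, and the other 4 were below 1 CPM like Il4, Il13 and Il5. Il4 (53602982 to 53618669) and Il13 (53631324 to 53634702) lie between Kif3a (53567379 to 53601967) and Rad50 (53649519 to 53707319), followed by Il5 (53720794 to 53725106) and Irf1 (53770014 to 53778374). Rad50, a DNA repair gene that holds the control region of the cluster in its introns, was at 158 to 206.1 CPM, and Irf1, an interferon-induced factor, at 307.3 to 441.5. Kif3a, a kinesin gene, was at 8.90 to 15.8 CPM. Of 16 genes from Hspa4 to Acsl6, 12 were tested and 2 were called with Sry, both lower, with a median of -0.02. Over all tested genes 5.44% were called with Sry, 3.31% lower. An unadjusted edgeR p under 0.05 with Sry was reached by 3 of the 12, against 21% of all tested genes. P4ha2, a collagen prolyl hydroxylase subunit, fell by 1.14 ± 0.24 and Acsl6, an acyl-CoA synthetase, by 0.43 ± 0.11 (edgeR adjusted p = 0.014 and 0.036). The Acsl6 call was kept in 5 of 12 fits, ending without replicate 2 of XX, 1 or 2 of XY-, 2 or 3 of XXSry, or 1 or 2 of XY-Sry. In the comparison of XX with XY- types edgeR called 0 genes in each of these 4 lists, and at an unadjusted p under 0.05 were 7 of 24 that promote the program, 3 of 15 that oppose it, 1 of 11 other products and 4 of 12 neighbours, against 14.2% of all tested genes. DESeq2 called 1 gene that promotes the program there and 0 in the other lists.

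Markers of other cells that can express these genes were measured in the same libraries. In bulk RNA fewer cells of a type and less RNA per cell cannot be told apart. Each list count below stands beside 5.44% of all tested genes called with Sry, 2.13% higher and 3.31% lower. An unadjusted edgeR p under 0.05 with Sry was found for 21% of all tested genes. For regulatory T cell genes it was 4 of 10, innate lymphoid 3 of 4, follicular helper 3 of 7 and Th17 4 of 4. For naive T cell genes it was 4 of 7, and for CD8 and NK cell genes 3 of 6. For CD4+ T cell genes it was 3 of 12, for Th1 genes 1 of 5 and for mast cell genes 1 of 2, of those tested. Of 10 regulatory T cell genes, all tested, 1 was higher with Sry and 1 lower: Ikzf2, the factor Helios, rose by 0.41 ± 0.06 and Gpr83 fell by 0.73 ± 0.11 (edgeR adjusted p = 0.0027 and 0.0019). Without Sry their summed level was 1221 to 1477 CPM (XX) and 1203 to 1416 CPM (XY-), and with it 1323 to 1373 CPM (XXSry) and 1206 to 1257 CPM (XY-Sry). Foxp3, the defining factor, averaged 136 ± 30 (XX) and 117 ± 18 CPM (XY-) without Sry and 155.3 ± 4.6 (XXSry) and 136.1 ± 5.7 CPM (XY-Sry) with it (SD, n = 3), with a change of 0.21 (edgeR adjusted p = 0.21). The part of regulatory T cells in the Ccr8 difference was not tested.

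Mast cell and basophil genes, 12 in the list of which 2 were tested, summed to between 3.06 and 5.42 CPM, and Fcer1a, Ms4a2 and Prss34 had 0 counts in every library. The sum was 3.06 to 4.36 (XX) and 3.61 to 4.35 CPM (XY-) without Sry and 4.64 to 5.26 (XXSry) and 4.58 to 5.42 CPM (XY-Sry) with it, and Kit, a growth factor receptor, rose with Sry by 1.00 ± 0.18 (edgeR adjusted p = 0.0050). The other tested gene, the histidine decarboxylase gene Hdc, had a change of -0.18 ± 0.23 (edgeR adjusted p = 0.71). Of 7 innate lymphoid cell genes 4 were tested, 1 of them called, Il18r1 at -0.54 (edgeR adjusted p = 0.034), and Arg1, Klrg1 and Nmur1 averaged below 1 CPM.

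Genes of other helper types moved in part with the same comparison, in which 5.44% of all tested genes were called. Of 7 follicular helper genes Pdcd1, the inhibitory receptor PD-1, was called, at 0.66 (edgeR adjusted p = 0.0022). Of 6 Th17 genes 4 were tested and Ccr6 was called, at 0.54 (edgeR adjusted p = 0.044), while DESeq2 called 2. All 4 changes were positive, with a median of 0.87, and 3 of the 6 genes averaged below 1 CPM. The summed list level was 7.71 to 11.0 (XX) and 9.13 to 15.7 CPM (XY-) without Sry and 12.6 to 20.2 (XXSry) and 17.3 to 19.2 CPM (XY-Sry) with it. Of 6 Th1 genes 5 were tested and Il18rap was called, at -0.41 (edgeR adjusted p = 0.032). The naive T cell genes Dapl1 and Il6ra were called at -1.60 and 0.27 (edgeR adjusted p = 8.4e-05 and 0.033) among 7. CD8 and NK cell genes held 2 lower calls among 6 tested, Cd8a at -1.11 and Klrk1 at -1.34 (edgeR adjusted p = 0.0037 and 0.017). Of these 6 genes 2 had a positive change and 4 a negative one. Cd8b1 of the same list went the other way from Cd8a within each type. It stood at 0.28 ± 0.10 within XX and 0.02 ± 0.10 within XY- (edgeR adjusted p = 0.24 and 0.95).

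Of 12 CD4+ T cell genes Cd5 was called at 0.20 and Cd2 at -0.22 (edgeR adjusted p = 0.0079 and 0.043), where 5.44% of all tested genes were called. B cell, myeloid and NKT or gamma delta T cell genes had 0 calls with Sry by edgeR and by DESeq2, among 6, 3 and 5 tested, and 0 at an unadjusted edgeR p under 0.05. B cell genes summed to 294.6 to 374.9 CPM, nearly all of it Ighm at 289.3 to 367.1, while Cd79a averaged 1.01 CPM. Myeloid genes summed to 16.1 to 21.5 CPM, with Itgax at 0 counts and Lyz2 at 1 count in all.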

How the data were processed

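The authors deposited 1 table of unnormalized whole-number read counts with an Ensembl gene per line and a library per column, per the file headers. The submitters' processing notes name bcl2fastq 2.17 and mm10. The aligner, counter, annotation and strand setting are not given in the sources used here. GENCODE M21 supplied symbols, positions and exon lengths for 37693 of 39017 identifiers, and promoters came from RefSeq (GRCm38.p6). The 1324 unmatched identifiers held 0.597% of counts and stayed in the tests.

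The main test was that of edgeR 4.0.16 (R 4.3.3), with TMM factors, filterByExpr (minimum count 10, minimum total 15), 1 term per group over 12 libraries, the quasi-likelihood F-test, and Benjamini-Hochberg adjustment over all 14585 tested genes, with a call at an adjusted p under 0.05. Errors of log2 changes are standard errors, those of CPM are SD over 3 libraries. Correlations used log2 CPM with a prior count of 2. The fit was tested on simulated data. Alternatives were DESeq2 size factors, no filter, a filter at a mean of 50 reads, the DESeq2 1.42.0 test, a replicate block, only the 2 groups compared, and each library left out.

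No pair of libraries in a group matched within sampling noise (chi-square over its degrees of freedom was 2.47 to 18.0), so each was kept as a sample. Separate animals are not stated, so p-values measure the spread between libraries, which may be technical. Intervals of count ratios and limits from 0 counts (3 counts) cover counting error only.

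The members and lists were chosen with earlier results of these data known. The text names all 10 members, called genes of each list, up to 4 more per list by level, and the 2 genes most like each member with at least 5 CPM. A few others were chosen after their values were seen: Stat6, Tbx21, Foxp3, Kif3a, and low-count genes named for being near 0.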

Additional observations from a re-analysis of the deposited data

How the results depend on the processing

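In the mean Sry comparison the 2 called members, Nfil3 and Ccr8, were called under every alternative tried, and the count of members ran from 2 to 3 over the fits without 1 library, the third being Gata3 without XX replicate 3. In XXSry against XX the count of 1 became 2 without a filter and with DESeq2, 0 with only the 2 groups, and 0 to 1 without 1 library, where the member called without XXSry replicate 3 was Ccr8 and not Nfil3. In XY-Sry against XY- the count of 1 became 2 without a filter, with DESeq2 and with only the 2 groups, and 0 to 2 without 1 library. In the sex chromosome comparisons and the interaction it stayed at 0 under all alternatives. No called member changed sign. The number of all genes called with Sry, 793, became 1494 without a filter and 358 to 1282 without 1 library, and that for the sex chromosomes, 20, became 652 without a filter, 84 with DESeq2, and 16 to 91 without 1 library. The 91 came without XY- replicate 2 and the 1282 without XXSry replicate 3, while 358 to 433 genes were called with Sry without replicate 2 of XY-, 1 or 2 of XXSry, or 1 or 2 of XY-Sry. The filter at a mean of 50 reads left Il4, Il13 and Il1rl1 untested. The cause of these shifts was not tested. Replicate numbers did not pair the libraries (correlations of same-numbered deviations from -0.161 to 0.227). With a replicate block the members called were 2 with Sry, 1 in each Sry comparison within a type and 0 in the others, and all genes called were 944 and 28. Settings for the lists were added after seeing the data: the block gave 6 called genes opposing the program in place of 3, and no filter gave 7 that promote it, 7 that oppose it, 3 other products and 4 neighbours in place of 4, 3, 0 and 2. Precision for Il4, Il13, Il5 and Il24 is limited by 46 to 91 counts over all libraries.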
